A study of Mus musculus with 8 samples.

Results

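The step from 1 h to 2 h of IKZF1 induction was examined in 4 ATAC-seq peak lists, 2 labelled 1 h and 2 labelled 2 h, of the 8 lists in the series. Merging the overlapping peaks of these 4 lists gave 142517 regions, against 174718 from all 8 lists. All cells were of the mouse pre-B line B3 after transduction with Ikaros-ERt2, which joins IKZF1 (Ikaros) to the tamoxifen-responsive domain of the estrogen receptor and enters the nucleus once 4-hydroxytamoxifen (4-OHT) is given. The 1 h and 2 h groups had 500 nM 4-OHT for those times. The 30 min group had the same dose for 30 min and the 0 h group had none; both were used to follow regions back in time, to choose the early responding classes and in 1 fit of all 8 libraries. Because the 1 h and 2 h cells carry the same construct and the same drug, they differ in the time of exposure, and effects of IKZF1 and of 4-OHT over that hour cannot be told apart. No source used here says that the 2 replicates of a time were separate cultures, so tests between them measure the spread between these libraries. With 2 libraries against 2, an exact two-sided permutation test cannot give a p below 0.333.

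IKZF1 is a zinc-finger transcription factor that binds DNA words with the core GGAA or GGGA and recruits corepressors, the nucleosome-remodelling deacetylase NuRD among them. In pre-B cells it restrains proliferation, lowers the genes of the surrogate light chain of the pre-B receptor and favours differentiation. ATAC-seq uses the transposase Tn5 to cut accessible DNA, so that a region where nucleosomes close over a factor's site loses short fragments.

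A peak's level was the deposited fold of the fragments at its summit over the local background, a ratio within 1 library. Wherever all 4 lists held a peak, the region was ranked by it within each list, and levels are given as percentiles of that rank, 0 for the weakest and 100 for the strongest. A percentile is relative, so that a class of regions rises only as others fall. The number of fragments over the summit, recovered from the deposited values, is given beside it and is not scaled for depth. The 1 h lists held 103850 and 93462 peaks and the 2 h lists 103897 and 99060. The median peak had 12 or 13 fragments at its summit, and the background, in fragments per base, was 0.366 and 0.312 in the 1 h libraries and 0.337 and 0.317 in those of 2 h. Of the markers checked within 1 kb of their start sites, the pre-B genes Cd79a, Cd79b, Pax5, Ebf1 and Igll1 had a peak in all 4 lists, and Vpreb1 had none there. None of 4 myeloid markers had such a peak in any list, whereas Cd4 and Lck of 4 T cell markers and Col1a1 of 3 fibroblast markers had one in all 4.

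The sequences shown are those of the regions with the lowest unadjusted p in each direction between 1 h and 2 h, since they are the first that the naming rule gives. Each is 120 bp around the median summit of the region's peaks on the plus strand of GRCm38, with the core words of IKZF1 in capitals, that is every GGAA or GGGA and, for the other strand, every TTCC or TCCC. The first 3 were lower at 2 h and lie at chr8:113679551-113679670, chr6:134822973-134823092 and chr2:171633372-171633491. The last 3 were higher at 2 h and lie at chr3:75202978-75203097, chr9:120602905-120603024 and chr4:58645125-58645244. Each bears the name of the nearest protein-coding gene.
Syce1l: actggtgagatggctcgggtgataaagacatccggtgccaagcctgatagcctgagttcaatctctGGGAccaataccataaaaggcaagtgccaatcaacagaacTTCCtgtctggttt
Crebl2: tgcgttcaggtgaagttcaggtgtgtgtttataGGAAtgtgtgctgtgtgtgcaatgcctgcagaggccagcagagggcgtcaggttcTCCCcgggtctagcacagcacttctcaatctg
Cbln4: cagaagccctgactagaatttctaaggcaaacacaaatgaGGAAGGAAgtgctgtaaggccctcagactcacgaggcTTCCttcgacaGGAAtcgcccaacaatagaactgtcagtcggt
Zbbx: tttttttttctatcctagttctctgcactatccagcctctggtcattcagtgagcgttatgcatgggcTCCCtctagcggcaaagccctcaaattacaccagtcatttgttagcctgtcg
Rpl14: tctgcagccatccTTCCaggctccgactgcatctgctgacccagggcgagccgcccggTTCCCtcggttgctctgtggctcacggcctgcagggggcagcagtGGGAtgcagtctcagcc
Lpar1: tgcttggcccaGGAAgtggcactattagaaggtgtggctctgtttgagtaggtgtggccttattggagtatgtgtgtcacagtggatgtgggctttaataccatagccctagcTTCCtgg
The lower windows held 2, 2 and 4 core words and the higher windows 1, 4 and 2, so the counts of the 2 directions overlapped.

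The first question was whether peaks still appeared and disappeared between 1 h and 2 h. A peak stood in both 1 h lists and neither 2 h list in 3021 regions (2.12% of all regions), and in both 2 h lists and neither 1 h list in 3868 regions (2.71%). When the same 4 lists were divided across the times, 4442 regions were shared by replicate 1 of both times only and 2043 by replicate 2 of both times only. The other crossed division gave 3382 regions in 1 h replicate 1 and 2 h replicate 2 only, and 2582 in 1 h replicate 2 and 2 h replicate 1 only. Both counts by time lay within the crossed range, and their sum was 1.11 times the mean sum of the crossed divisions. The lists differ in length, however, and with each cut to its 93462 strongest peaks the counts by time were 3188 at 1 h only and 3198 at 2 h only, above all 4 crossed counts (2717 to 2933), with a ratio of 1.14. By the same rule the 0 h to 30 min step gave 3.70 times and the 30 min to 1 h step 1.502 times, each in its own 4 lists. Regions that distinguish a time were weak, with a median of 7 fragments at the summit, and only 7 of those at 1 h only and 7 of those at 2 h only had over 20 fragments in both lists. The crossed divisions held 3 to 17 such strong regions.

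The regions at a single time differed in kind more than in number. The 0 h and 30 min lists had no part in choosing them. Of the regions present at 1 h only, 949 (31.4%) had a peak in both 0 h lists. Of those present at 2 h only, 404 (10.4%) did. The 4 crossed classes lay between, at 16.1% to 18.1%. In the same order, 47.7% of the regions at 1 h only and 73.3% of those at 2 h only lacked a peak in both 0 h lists, against 60.2% to 64.1% in the crossed classes. The 30 min lists gave the same order, with peaks in both of them for 31.1% of regions at 1 h only, 14.5% at 2 h only and 18.8% to 21.3% in the crossed classes. By share, and with no test, regions listed at 1 h only had more often been listed before induction than those listed at 2 h only.

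The IKZF1 core words divided the same way. Regions at 1 h only held a mean of 4.16 core words in the 200 bp around their centre and those at 2 h only 3.31, while the crossed classes held 3.64 to 3.78. Word-rich regions, those with 7 or more words, made up 16.0% of the regions at 1 h only, 7.45% of those at 2 h only and 9.89% to 12.3% of the crossed classes. Word-poor regions, with at most 1 word, made up 11.7%, 19.2% and 13.8% to 15.3%. Promoter regions, with a start site within 1 kb, were 15.5% at 1 h only, 10.4% at 2 h only and 12.3% to 16.1% in the crossed classes.

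**Figure D1:**
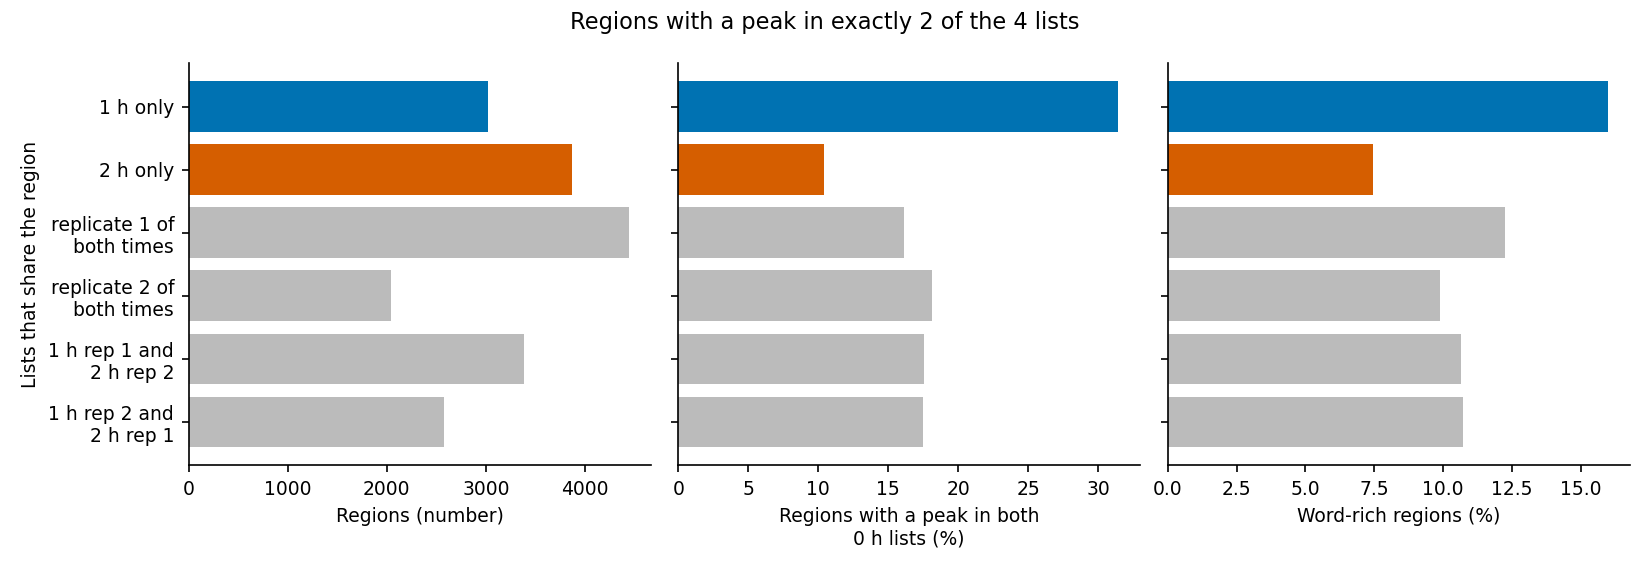
Horizontal bars give, for regions with a peak in exactly 2 of the 4 lists, their number, the percent with a peak in both 0 h lists and the percent that are word-rich, with crossed pairs of lists in grey. The counts of 3021 and 3868 by time lie within the crossed range of 2043 to 4442, whereas the shares by time (31.4% and 10.4%, 16.0% and 7.45%) lie outside the crossed shares on opposite sides.

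The next question was which regions open at both times changed in rank. Of the 142517 regions, 66363 (46.6%) had a peak in all 4 lists. With limma, 0 of them were lower and 0 were higher at 2 h than at 1 h at a Benjamini-Hochberg adjusted p under 0.01 (0% in each direction). The lowest adjusted p was 0.768. At an unadjusted p under 0.05, 1978 regions were lower (2.98% of those tested) and 2163 higher (3.26%), and in each of these the 2 libraries of one time lay beyond both of the other. In the fit of all 8 libraries, 30 min against 0 h also had 0 lower and 0 higher of 47875 regions at an adjusted p under 0.01. Under 0.05 that early step had 712 lower and 336 higher (limma). Its share of regions at an unadjusted p under 0.05 was 19.45%. For 1 h against 30 min that share was 11.3%, and for 2 h against 1 h it was 5.91%, in the same fit. The normal scores of the ranks correlated at 0.840 and 0.844 between replicates and at 0.829 to 0.839 between libraries of different times, over 66363 regions that share each library's depth. The score shift between the time means had an SD of 0.420 over regions, and the SD between replicates of a time was 0.397, which is also the SD that the shift would have from replicate spread alone. Classes of regions, each averaged within a library, were compared next.

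**Figure D2:**
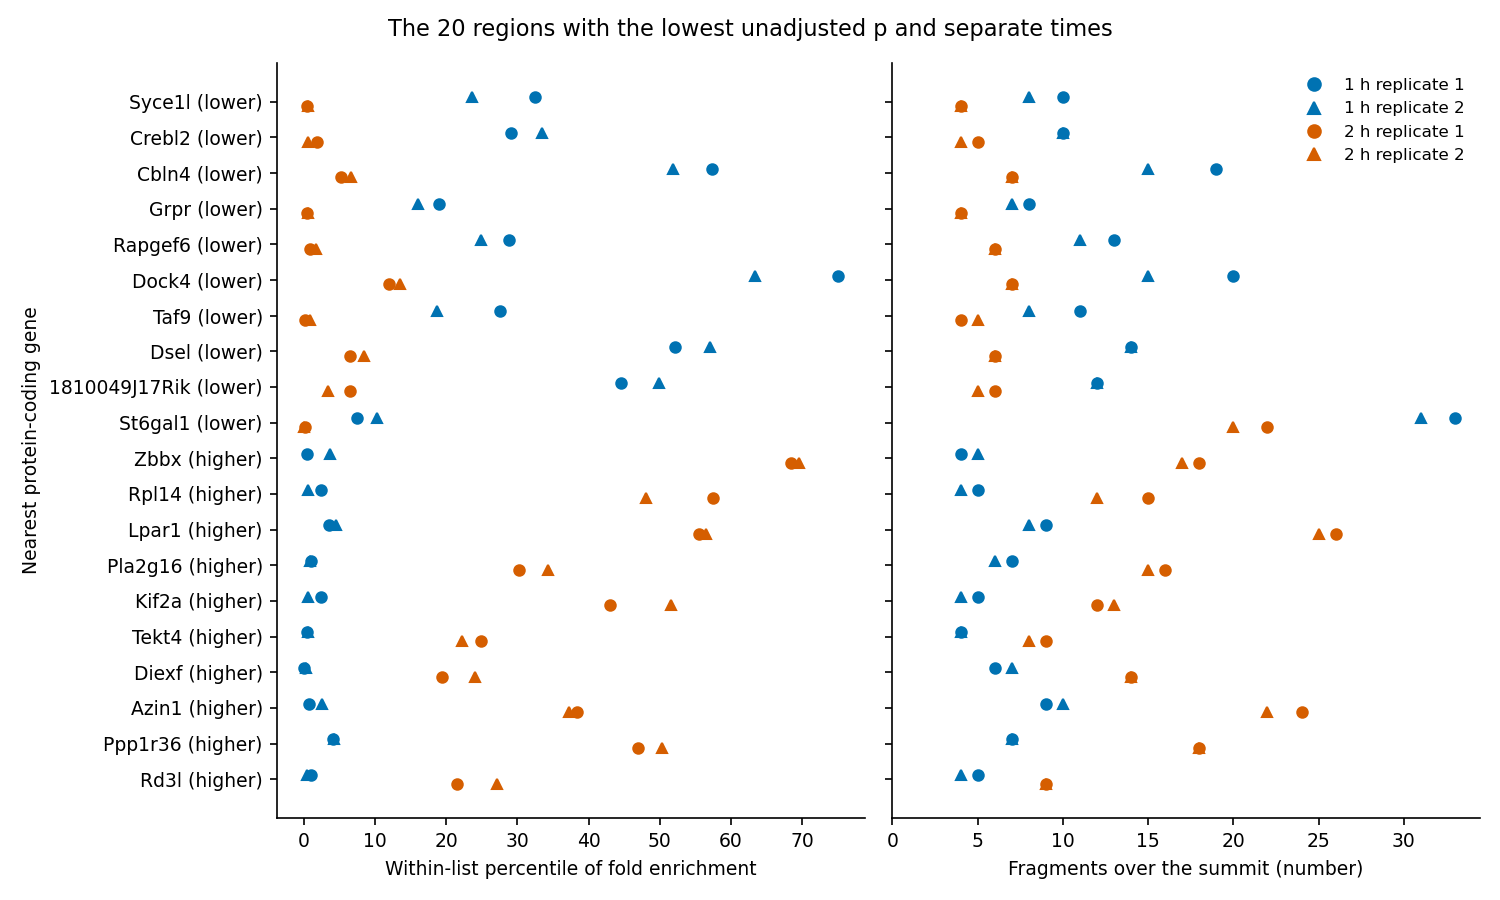
Points give the within-list percentile of fold enrichment and the fragments over the summit in each library, for the 10 regions lower and the 10 higher at 2 h with the lowest unadjusted p. Libraries of a time lie close together and apart from the other time because the regions were chosen for that, and no region has more than 33 fragments.

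The named regions of lowest p show what a single-region difference amounted to at this depth. The region farthest up lay between genes, 59234 bp from Zbbx at chr3:75203006-75203118. It had 4 and 5 fragments in the 1 h libraries, 18 and 17 in those of 2 h, and its percentiles went from 0.426 and 3.60 to 68.5 and 69.5. The earlier lists held 17 and 9, then 12 and 10 fragments, so the 1 h libraries were the low ones (unadjusted p = 0.000124, adjusted p = 0.768, limma). A region 91500 bp from Lpar1, which encodes a lysophosphatidic acid receptor, had 9 and 8 fragments in the 1 h libraries, 26 and 25 in those of 2 h and no peak at 0 h or 30 min (adjusted p = 0.768, limma). In an intron of Pla2g16, 543 bp from its start site, the 1 h libraries had 7 and 6 fragments and the 2 h libraries 16 and 15, again with no peak in the 4 earlier lists. Both regions had a peak at 1 h and 2 h only, with the 2 h libraries higher. The region 41226 bp from Azin1 (9 and 10 fragments, then 24 and 22) likewise had none earlier.

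Among the regions lower at 2 h, an intergenic region lay 409980 bp from Cbln4, its nearest protein-coding gene. It had 27 and 22 fragments before induction and a peak in only 1 of the 30 min lists, with 14. It then had 19 and 15 at 1 h, and 7 in each 2 h library. Its percentiles were 57.4 and 51.8 at 1 h and 5.16 and 6.63 at 2 h. An intron of Dock4, a guanine nucleotide exchange factor for Rac, held 20 and 15 fragments in the 1 h libraries, 7 in each of those of 2 h, after 16 and 10 at 0 h and 21 and 13 at 30 min. Its percentiles were 75.1 and 63.4 against 11.9 and 13.6. An intron of St6gal1, the sialyltransferase that makes the CD22 ligand, had the most fragments of these regions, 33 and 31 after 1 h, 22 and 20 after 2 h. It had no peak at 0 h, and 26 and 20 fragments at 30 min. Its percentiles of 7.49, 10.3, 0.200 and 0.0173 were low nonetheless, since the fold is taken over the local background. A start site lay within 1 kb of 1 region, the one in Pla2g16, of these 20. The lower regions held 3.30 core words on average and the higher regions 4.10, and adjusted p was 0.768 for all 20 (limma).

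Regions present at a single time were named by the height of the weaker of their 2 peaks. At 1 h only, a region 1766 bp from the start site of Rflnb, a regulator of actin filaments, had 44 and 31 fragments before induction, then 18 and 10, then 12 and 12 at 1 h, and no peak at 2 h. A region 8856 bp from Dusp5, a phosphatase of the MAP kinase ERK, held 13 core words, and had 11 and 13 fragments before induction, then 5 and 8, then 12 and 11 at 1 h, and no peak at 2 h. At 2 h only, an intron of Add1, which encodes adducin of the membrane skeleton, had 15 and 17 fragments, after no peak at 0 h, 7 fragments in 1 of the 30 min lists and no peak at 1 h. The exon of the pseudogene Cyp2j15-ps had 14 and 18 fragments at 2 h and no peak at 1 h, but 8 and 5 at 0 h. These counts are small, and a peak that narrowly missed the caller's threshold is listed as absent.

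Classes of regions were judged by their mean in each library, a different measure from the adjusted p of single regions. All classes come from the same 4 libraries and a relative rank, so their shifts are not independent of one another. Regions sorted by their early response, in the 0 h and 30 min libraries alone, were compared between 1 h and 2 h. The 1 h and 2 h lists entered that choice only in that a member needed a peak in all 8 lists. Among 47875 regions open in all 8 lists, the 2000 with the largest fall in score from 0 h to 30 min averaged percentiles of 62.2 and 63.2 before induction and 22.7 and 22.2 after 30 min. They stood at 20.1 and 19.97 in the 1 h libraries and at 18.2 and 18.1 in the 2 h libraries. The difference from 1 h (20.04 ± 0.103, SD, n = 2) to 2 h (18.2 ± 0.0513, SD, n = 2) was -1.89 points, and the libraries of the times did not overlap (exact two-sided permutation p = 0.333, the smallest possible). The 2000 regions with the largest rise went the other way. Their mean percentiles were 20.9 and 18.4 before induction, 52.0 and 52.4 after 30 min, then 53.9 and 53.5 after 1 h, and 55.6 and 56.3 after 2 h. From 1 h (53.7 ± 0.309, SD, n = 2) to 2 h (55.95 ± 0.539, SD, n = 2) that was 2.28 points higher (exact permutation p = 0.333). Both classes lay farther from their 0 h level at 2 h than at 1 h, by little beside the -40.3 and 32.5 points of their first 30 min, which chose them.

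Counted region by region, both 2 h libraries lay below both 1 h libraries in 444 (22.2%) and above in 257 (12.8%) of the early falling regions. The early rising regions had 242 (12.1%) below and 472 (23.6%) above. Over all 47875 regions the shares were 17.8% below and 17.1% above. The falling class held 5.70 core words per 200 bp and the rising class 3.22, against 4.26 over all these regions. In a fit of all 8 libraries, the test of the difference between the step from 1 h to 2 h and that from 0 h to 30 min called 0 of 47875 regions (0%, limma adjusted p under 0.01), with a lowest adjusted p of 0.121 and 5628 regions at an unadjusted p under 0.05.

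**Figure D3:**
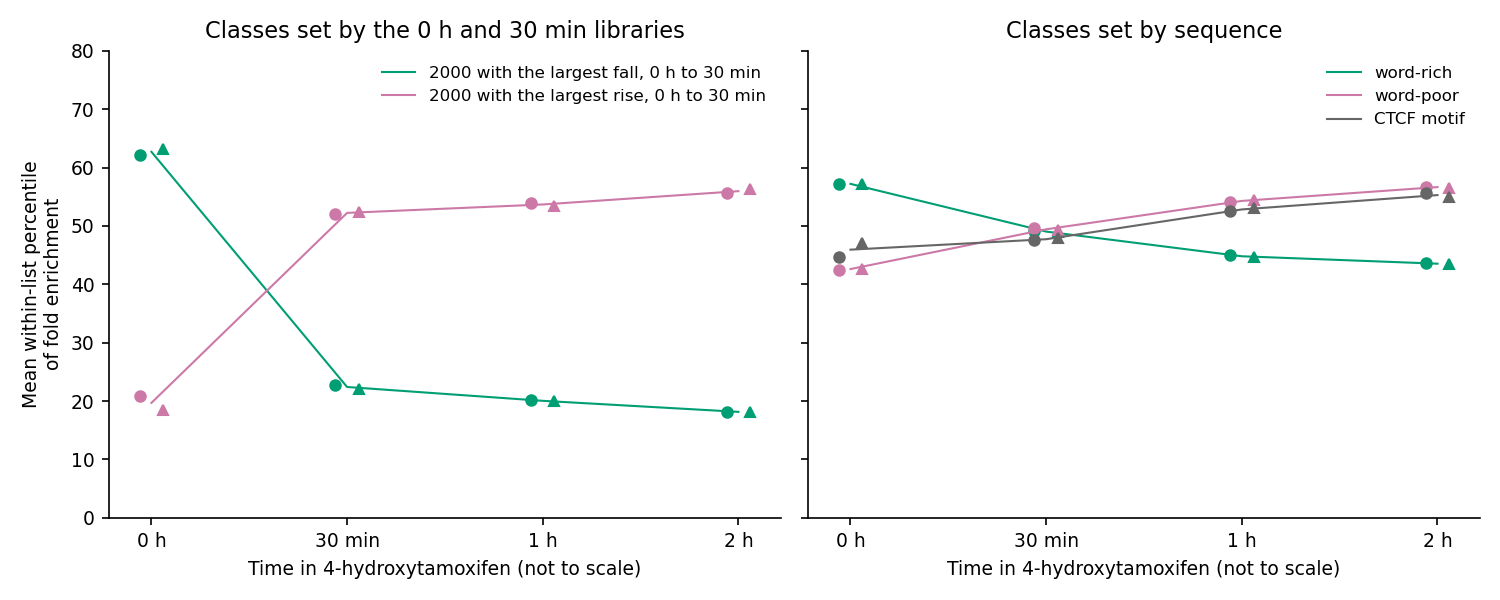
Mean within-list percentile of fold enrichment at 4 times, circles for replicate 1 and triangles for replicate 2, lines through the means, over 47875 regions. On the left, the 2000 early falling regions go from 20.04 to 18.2 and the 2000 early rising from 53.7 to 55.95 between 1 h and 2 h; on the right, word-rich regions go from 44.8 to 43.5, word-poor regions from 54.3 to 56.7 and regions with a CTCF motif from 52.8 to 55.3.

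The shift from 1 h to 2 h was graded by the number of IKZF1 core words. The 2180 regions without such a word had mean percentiles of 46.1 and 46.2 at 1 h and 49.8 and 49.9 at 2 h, a difference of 3.70 points. With 1 word the difference was 2.25 points, with 2 words 1.18 and with 3 words 0.420. With 4 words it was below 0, at -0.501, and with 6 words it was -1.56. The 614 regions with 10 words went from 48.4 and 48.2 to 45.9 and 44.9, a difference of -2.91 points, and the 543 regions with 11 or more from 46.7 and 45.8 to 43.2 and 44.7, or -2.32. In all 12 bins the libraries of 1 h and 2 h did not overlap, and each exact permutation p was 0.333, the smallest possible. From 0 to 10 words each further word gave a lower difference, and the last bin lay above the one before it. At an unadjusted p under 0.05, 6.38% of the regions without a core word were higher at 2 h and 1.83% lower. For 11 or more words it was 2.39% higher and 5.16% lower, beside 3.26% and 2.98% over all tested regions.

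**Figure D4:**
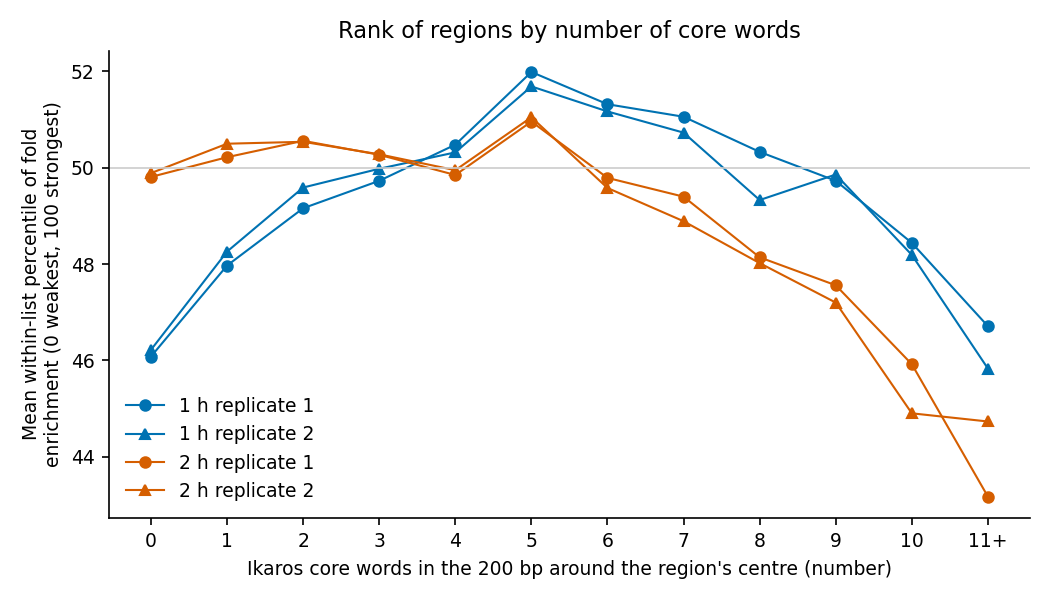
Mean within-list percentile of fold enrichment against the number of IKZF1 core words in 200 bp, for each of the 4 libraries over 66363 regions. The 2 h libraries lie above the 1 h libraries from 0 to 3 words (49.8 and 49.9 against 46.1 and 46.2 at 0 words) and below them from 4 words on.

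Taking the ends of that scale, the 8570 word-rich regions averaged 50.2 and 49.7 at 1 h and 48.2 and 47.9 at 2 h, from 50.0 ± 0.339 to 48.0 ± 0.205 (SD, n = 2 each). The 8475 word-poor regions averaged 47.5 and 47.7 at 1 h and 50.1 and 50.3 at 2 h, from 47.6 ± 0.174 to 50.2 ± 0.161 (SD, n = 2 each). Word-rich minus word-poor was 2.73 and 2.00 points at 1 h and -1.96 and -2.48 at 2 h, so its sign differed between the times in this set of regions (exact two-sided permutation p = 0.333). The change was -4.58 points. It was -4.17 points among regions with a mean of at least 20 fragments, -5.11 in distal regions and -1.31 when regions with and without GGGAA or TTCCC were compared in place of the word classes. On the scale of recovered fragments over background, centred on each library's median, the same change was -0.144 log2 units. In the 47875 regions found in all 8 lists, the word-rich class stood, in order of time, at 57.2 ± 0.0349, 49.0 ± 0.0866, 44.8 ± 0.290 and 43.5 ± 0.196 (SD, n = 2 each). The word-poor class stood at 42.6 ± 0.133, 49.4 ± 0.271, 54.3 ± 0.318 and 56.7 ± 0.111. In these regions the word-rich class was thus already below the word-poor class at 1 h, and the difference between them grew without a change of sign.

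Rank by GC content differed more between replicates than between times. In the 1 of 5 bins with the most GC, mean percentiles were 59.5 and 57.5 at 1 h and 58.8 and 57.1 at 2 h, so that the replicates of a time lay farther apart than the times. Core words contain G and C, and the word classes were therefore compared within the 5 bins of GC content. Word-rich regions were lower at 2 h in every bin, by -3.10 points in the bin of least GC, then -2.88, -2.002, -2.14 and, in that of most GC, -1.29. Word-poor regions were higher in every bin, by 2.69, 2.52, 2.82, 3.12 and 1.72 points. In the first 4 bins the libraries of the times did not overlap for either class. In the bin of most GC they overlapped.

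**Figure D5:**
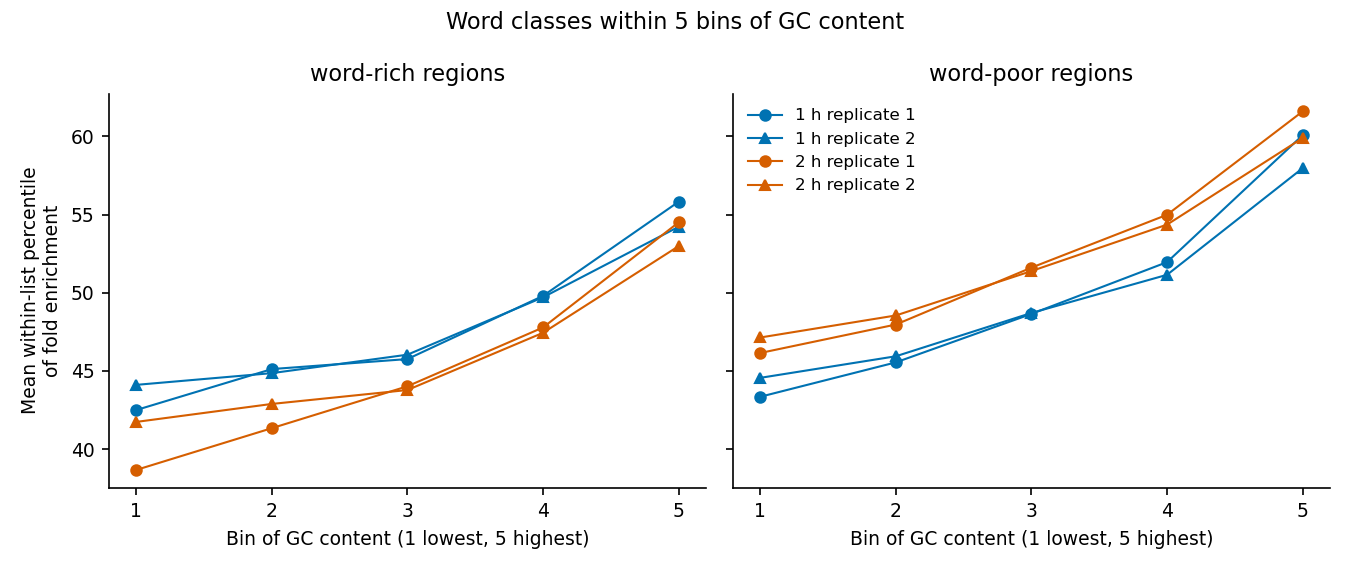
Mean within-list percentile of fold enrichment in each library by bin of GC content, for word-rich regions on the left and word-poor regions on the right. The 2 h libraries lie below the 1 h libraries for word-rich regions and above them for word-poor regions in the first 4 bins, and in the last bin the libraries overlap.

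Words of other factors were searched for on both strands of the same 200 bp. They were TGTGGT for Runt factors (held by 24.5% of the tested regions), TGTTTA for Forkhead factors (10.4%), CAGGTG for E-box proteins (18.8%), CCACCC for KLF factors (19.7%), TGANTCA for AP-1 (7.37%), GGGCGG for the GC box (16.8%), TGACGTCA for CRE (0.848%), ATTTGCAT for the octamer (2.05%), CCCNNGGGA for EBF (7.84%) and the CTCF motif (7.87%). Regions with the motif of the insulator protein CTCF, 5225 in all, averaged 56.02 and 56.5 at 1 h and 58.1 and 57.4 at 2 h, a difference of 1.502 points. They held 3.84 core words on average. Among regions with 2 to 5 core words the difference was 1.79 points with the CTCF motif and -0.0478 without it, and only with the motif were the libraries of the times apart. Regions with the E-box word CAGGTG, bound by E2A and its relatives in B cells, went from 47.7 and 47.7 to 48.9 and 48.5, or 0.996 points, and with 2 to 5 core words by 1.00 points. Regions with the EBF word went from 50.0 and 49.7 to 49.3 and 48.9, or -0.729 points, and held 5.02 core words on average. The EBF word itself contains GGGA, so that these classes overlap. For the Runt, Forkhead, KLF, AP-1, GC box, CRE and octamer words the libraries of the times overlapped, with differences between -0.382 and 0.447 points. The CTCF class in the 47875 regions stood at 45.9 ± 1.69, 47.7 ± 0.189, 52.8 ± 0.395 and 55.3 ± 0.407 in order of time (SD, n = 2 each). The study reported no effect of induction on accessibility at CTCF sites, which it took from binding data. Ranks are relative, so a class can rise as others fall, and whether regions with the CTCF motif opened was not tested.

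Promoter and distal regions differed less between the times than the word classes did. The 17119 promoter regions averaged 58.3 and 57.3 at 1 h and 57.2 and 56.7 at 2 h, and the 49244 distal regions 47.1 and 47.5, then 47.5 and 47.7. Distal minus promoter was -11.2 and -9.83 points at 1 h and -9.74 and -8.97 at 2 h, a change of 1.18 points (exact permutation p = 0.333). Without 1 h replicate 1 the change was 0.476 points and without 1 h replicate 2 it was 1.88, so each of these libraries moved it by over 1.5 times. It was 0.793 without 2 h replicate 2. The libraries overlapped with a start site within 200 bp in place of 1 kb, with regions ranked by −log10 p, and on the centred scale of recovered fragments, the last an alternative chosen after seeing the data. Word classes moved apart in both positions. Word-rich regions differed by -1.70 points in promoters and by -2.14 in distal regions, and word-poor regions by 0.910 and 2.97.

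Genes were followed through 11 lists with 165 genes, of which 161 had a tested region within 20 kb of a start site. No region of any list passed the adjusted p. Beside the background at an unadjusted p under 0.05, 2.98% for lower and 3.26% for higher, the immediate early genes, transcription factors and phosphatases induced by signalling, had 6 lower (4.80%) and 2 higher (1.60%) of 125 regions. The B lineage transcription factors had 4 lower and 1 higher of 117, the integrins and homing genes 4 and 1 of 88, and genes named by the study for a fast response to IKZF1 had 4 and 2 of 95. Cell cycle genes had 4 and 2 of 115, genes of the IL-7 receptor and JAK-STAT 2 and 1 of 55, and recombination genes 2 and 0 of 35. Genes of sterol synthesis had 2 lower and 2 higher of 57, pre-B receptor genes 1 and 2 of 86, NuRD and other corepressor subunits 0 and 1 of 81, and housekeeping genes 0 and 1 of 55. The median difference was below 0 in every list, from -1.70 points for the fast response genes to -0.0919 for the housekeeping genes, and it was -0.178 over all tested regions. The fast response genes were chosen by the study on cells of this kind, so that their direction is not independent evidence.

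At most start sites the times overlapped. Of 129 listed genes with a tested region at a start site, the libraries overlapped in 84, both 2 h libraries lay below in 27 (20.9%) and above in 18 (14.0%), beside 18.4% and 16.9% of all tested regions. At an unadjusted p under 0.05 there were 2 lower, Bcl11a and Ier3, and 0 higher. The start site of Bcl11a, a zinc-finger repressor of early B cells, had 37 and 26 fragments before induction, 21 and 17 after 30 min, 19 and 19 after 1 h, and 13 and 11 after 2 h. Its percentiles were 9.15 and 12.7 at 1 h and 1.00 and 0.798 at 2 h (unadjusted p = 0.00426, adjusted p = 0.768, limma). The start site of Ier3, an early response gene linked to cell survival, had 15 and 10 fragments before induction, 20 and 16 after 30 min, 22 and 16 after 1 h, and 11 and 8 after 2 h. Its percentiles were 52.8 and 35.8 against 9.83 and 4.06 (unadjusted p = 0.00348, adjusted p = 0.768, limma). The start site of Igll1, which encodes the lambda5 chain of the surrogate light chain, held 122 and 94 fragments before induction and 50 and 44 after 30 min. From 1 h to 2 h it went from 35 and 22 to 26 and 23 fragments, and its percentiles of 55.8 and 34.5 at 1 h overlapped those of 40.3 and 45.0 at 2 h. The Cd79a start site, of a signalling chain of the receptor, overlapped as well, with 62 and 43 fragments, then 60 and 54. So did the Myc start site, with 27 and 23, then 20 and 22.

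Of the 161 genes, 37 had a region that met the naming rule, 24 lower and 13 higher at 2 h, with unadjusted p from 0.00169 to 0.0496 and a lowest adjusted p of 0.768 (limma). That was 14.9% lower and 8.07% higher, beside 8.48% and 7.66% of 16324 protein-coding genes under the same rule. The listed genes had 5.42 tested regions each on average and all those genes 3.65, and a gene with more regions has more chances to meet the rule. Several of the lower regions had stood far higher before induction. Others had no peak at 0 h, those of S1pr1, Xrcc6 and Fli1 among them, so the regions described next do not stand for all 24. The region within 20 kb of Lyn, a kinase of the receptor, lay in an intron and had 63 and 52 fragments before induction, 21 and 20 after 30 min, 20 and 14 after 1 h, and 12 and 12 after 2 h. An intron of Ccnd3, the D cyclin of pre-B cell division, had 80 and 57, then 40 and 30, 24 and 25, and 20 and 16. A coding exon of Itgal, the alpha chain of the integrin LFA-1, had 84 and 67, then 38 and 41, 36 and 37, and 22 and 21. Near Icam2, a ligand of that integrin, 48 and 35 fragments before induction became 31 and 26, 24 and 18, and 13 and 13. The region 2077 bp from Egr3, an immediate early factor, had 44 and 38 fragments before induction, then 26 and 14, 25 and 20, and 11 and 12. For Tln1, which encodes the integrin-linked talin, the region lay in an untranslated exon of the neighbouring Creb3. It had 14 and 12 fragments after 1 h, and 8 and 7 after 2 h. The 53 and 37 before induction and 36 in 30 min replicate 1 were also those of the separate Tln1 start-site region. That start-site region had 30 and 30 after 1 h, and 41 and 26 after 2 h. The earlier counts may thus belong to either region, and no fall from 0 h is shown for the one in Creb3. The naming rule chose these 6 regions for separate times. Their adjusted p ranged from 0.768 to 0.775 (limma).

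Other listed genes took other courses. An intron of Dusp1, a phosphatase of MAP kinases, had no peak at 0 h, and then 15 and 15, 9 and 11, and 17 and 17 fragments. A region near E2f1, which drives entry into S phase, had no peak at 0 h, and then 6 and 5, 7 and 8, and 12 and 14 fragments. An intron of Irf8, a factor of B and myeloid cells, had a peak in 1 of the 4 earlier lists, then 18 and 14 fragments after 1 h, 14 and 11 after 2 h. Near Pim1, a kinase induced by cytokines, 10 and 9 fragments after 1 h became 17 and 14.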

How the data were processed

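Each ATAC-seq library was deposited as 1 MACS2 peak list. Per the labels, reads were handled with bcl2fastq 2.20.0, BWA 0.7.17, SAMtools 1.9, bedtools 2.27.1 and deepTools 2.3.5, and peaks were called with MACS2 2.1.2 on each library alone. The methods state that Tn5 ends were shifted and that fragments of up to 120 bp were kept. They name a human genome, but every peak, on 21 chromosomes, falls within the lengths of mouse GRCm38, the build used here. The lists hold the authors' fold of the summit over local background (a ratio), the deposited −log10 p and −log10 q, the summit offset and the deposited score, which was not used. Replicates were not pooled. The study's exclusion list was not used here.

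Fold and −log10 p fix the whole number of fragments at a summit; a whole number fitted 100% of the peaks within 0.001 in −log10 p. The most frequent background of a list stands for depth. Peaks overlapping by 1 bp or more were merged. Regions in all 4 lists were ranked by fold, turned into normal scores and tested with limma 3.58.1 in R 4.3.3 (Benjamini-Hochberg adjusted p under 0.01), on the 1 h and 2 h libraries alone. Class means were compared over libraries by exact two-sided permutation tests. Start sites and exons came from GENCODE M21. The word-rich limit of 7 and the word-poor limit of 1 are the 90th and 10th percentiles of the word count. Named regions were the 10 lower and 10 higher regions of lowest unadjusted p with both times apart, the 5 strongest at each time only and, for listed genes, the region of lowest p within 20 kb if under 0.05, and start sites. Those described were selected from these for the text. The regions, classes and gene lists were chosen with earlier results of these data known. The replicate numbers were not treated as pairs, since the labels give no shared culture or day for them. Other columns and the 4 earlier libraries entered only where stated. Some of the cell type markers checked are not reported here.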

Additional observations from a re-analysis of the deposited data

How the results depend on the processing

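No alternative called a region at an adjusted p under 0.01 or 0.05, lower or higher: −log10 p in place of fold, rank among all peaks, recovered fragments centred or not, a mean of at least 20 fragments, a peak in at least 2 lists, all 8 libraries, a trend with a robust prior, the replicate block, or leaving out a library. At an unadjusted p under 0.05, a mean of at least 20 fragments gave 927 lower and 1020 higher regions of fewer tested, a peak in at least 2 lists 4181 and 4369 of more tested, all 8 libraries 1377 higher of fewer tested, and uncentred fragments, an alternative chosen after seeing the data, 3561 higher; the median region was 0.0625 log2 units higher at 2 h on that scale, and the cause was not tested. Without a library the lower regions ranged from 1499 to 2475 and the higher from 1680 to 2693.

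The replicate block gave 0 called regions and 1963 lower and 2186 higher regions where the unadjusted p was under 0.05. The labels share only a number between times, and the deviations of same-numbered libraries correlated at 0.0121, so no pairing was assumed.

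Regions present at 2 h only ranged from 7219 to 15509 without a library and those at 1 h only from 6363 to 14644, since a single list then stands for a time. Over 20 fragments left 7 and 7. The ratio of time to crossed counts was 0.848 there and 1.10 to 1.14 under the other presence settings. With lists cut to an equal 93462 peaks, 3188 and 3198 regions lay above the crossed range of 2717 to 2933, unlike the counts reported.

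Word-rich minus word-poor ranged from -4.95 to -4.22 points without a library, and kept its sign under the alternatives run, the mean over 5 GC bins (-4.86) and the log2 scale among them, both chosen after seeing the data. Early falling and rising classes kept theirs, and distal minus promoter ranged from 0.476 to 1.88. The 20 named regions were chosen for separate times, so that the direction they kept in all 221 alternatives is no sign of stability. At a median of 12 or 13 fragments, single regions are imprecise, and each SD given for a time rests on 2 libraries.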
